A study of Mus musculus with 6 samples.

Results

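The transcripts examined were those of the 4 genes Myl7, Myl4, Sln and Bmp10, which mark the myocardium of the atria, among 30914 genes with deposited values. They were taken by gene symbol, and each of the 4 matched 1 gene. Heart RNA was sequenced from 3 mice given Ang II alone (the Ang II group) and 3 given Ang II and Tec (the Ang II + Tec group). All 6 animals were described as wild-type male C57BL/6J mice, 8 weeks old at the start, and the strain was not tested here. They received angiotensin II (Ang II), a hormone that raises blood pressure and enlarges the heart, at 1 μg/kg/min for 4 weeks by osmotic pump. The Ang II + Tec group also received tectochrysin (Tec), a plant flavonoid, at 5 mg/kg by intraperitoneal injection in the last 2 weeks. Both groups carried the Ang II infusion, so the comparison concerns the addition of Tec, and no heart without Ang II is part of it. The chambers that were taken for RNA are not given in the sources used here.

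Atrial and ventricular muscle cells build the same contractile and calcium-handling machinery from partly different genes. In the adult mouse, atrial cells use the regulatory light chain of Myl7 and the essential light chain of Myl4, where ventricular cells use Myl2 and Myl3. Sln encodes sarcolipin, a small membrane protein that slows the calcium pump of the sarcoplasmic reticulum in the atrium, a task that phospholamban (Pln) performs mainly in the ventricle. Bmp10 encodes a secreted growth factor of the TGF-β family that is made in the right atrium and acts on the endothelium through the receptor Alk1. Their levels in a piece of heart therefore reflect how much atrial muscle it holds, as well as how active these genes are. In RNA from whole tissue, fewer atrial cells and less of these transcripts in each cell cannot be told apart.

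Levels are given as FPKM, the abundance of fragments for the length of a transcript and the size of a library, which can be compared between genes. The sum of the 4 members was 637 and 797 FPKM in Ang II replicates 1 and 2 and 0.61 in Ang II replicate 3. With Ang II + Tec, replicates 1, 2 and 3 gave 0.29, 1568 and 2.62. The libraries thus stood apart within each group: Ang II replicates 1 and 2 and Ang II + Tec replicate 2 held abundant atrial transcripts, and the other 3 held almost none. Libraries of both groups lay on either side, and the groups overlapped for every member. The members made up 0.123%, 0.154% and 0.000103% of the FPKM of Ang II replicates 1, 2 and 3, and 4.65e-05%, 0.269% and 0.000416% in the same replicates with Ang II + Tec. The difference of the group means was -0.00249 percentage points (two-sided exact permutation test, p = 0.9), where 3 libraries against 3 cannot give a p-value below 0.1. The direction turned, to 0.0229 percentage points, with the genes of the mitochondrial genome left out of the sum. It also turned without Ang II replicate 1 or 2 (0.0129 and 0.0283) or Ang II + Tec replicate 1 or 3 (0.0425 and 0.0423). Mitochondrial genes made up 41.27%, 40.15% and 48.86% of the FPKM with Ang II alone and 51.33%, 49.63% and 52.53% with Ang II + Tec. Their share was thus lowest in Ang II replicates 1 and 2, and higher in each library with Tec than in any without.

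**Figure D1:**
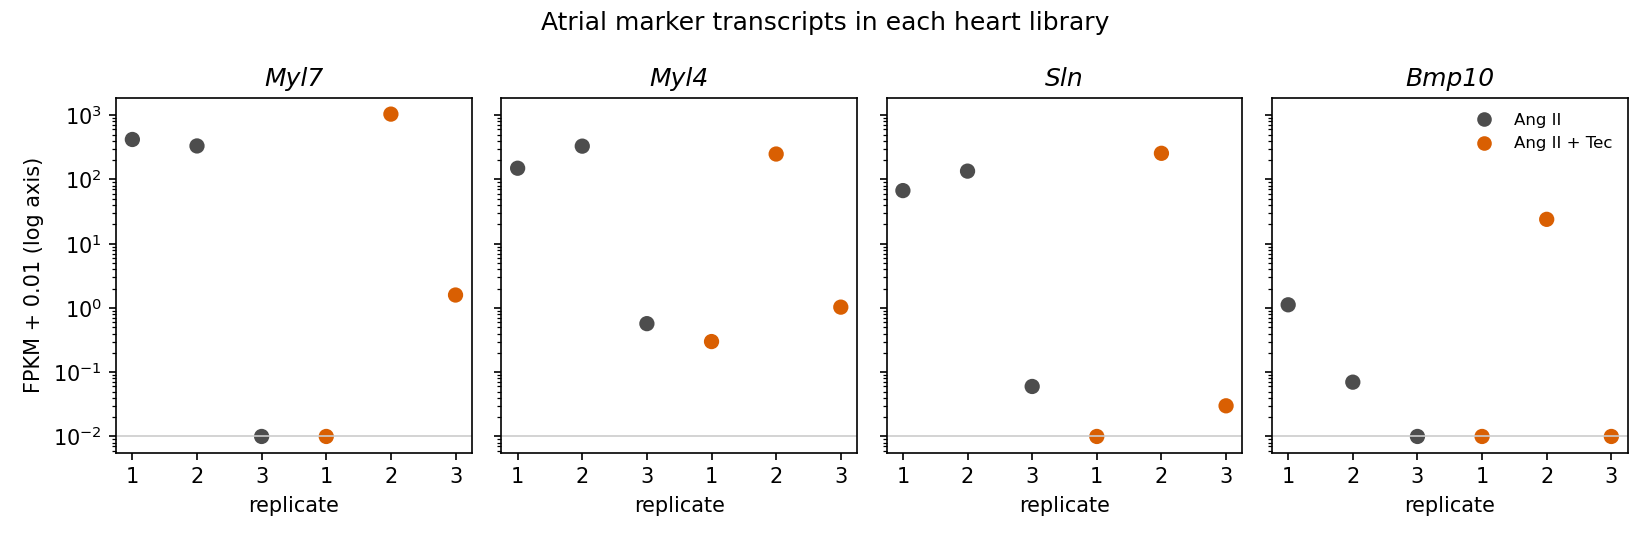
FPKM of Myl7, Myl4, Sln and Bmp10 in each library, with 0.01 added so that values listed at 0 appear on the log axis (grey line); points are single mice, grey for Ang II and orange for Ang II + Tec. Myl7, Myl4 and Sln lie above 50 FPKM in Ang II replicates 1 and 2 and in Ang II + Tec replicate 2, and below 2 FPKM in the other 3 libraries.

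Myl7 (ENSMUSG00000020469) lies on chromosome 11 from 5896637 to 5898782 on the minus strand (GRCm38) and has 7 exons. Its FPKM was 419, 332 and 0 in Ang II replicates 1, 2 and 3, and 0, 1039.8 and 1.58 in Ang II + Tec replicates 1, 2 and 3. In Ang II + Tec replicate 2 it was 2.48 times the next highest library, and the third highest was 210 times the fourth. Among all genes of a library it ranked 44 from the top in Ang II + Tec replicate 2 and 8766 in Ang II + Tec replicate 3. The log2 fold change of Ang II + Tec against Ang II, on the scale of log2(FPKM + 1), was -1.90 (standard error 3.15, limma adjusted p = 0.724), smaller than its own error.

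Myl4 (ENSMUSG00000061086) lies on the same chromosome from 104550663 to 104595753 on the plus strand. Its FPKM was 149.5, 329.9 and 0.56 with Ang II alone and 0.29, 249 and 1.02 with Ang II + Tec, in the order of the replicates. The same 3 libraries were high as for Myl7, but in another order, with Ang II replicate 2 highest for Myl4 and lowest of the 3 for Myl7. The log2 fold change was -2.30 (standard error 2.54, limma adjusted p = 0.593). On the opposite strand, 4 annotated genes overlap Myl4, and the highest of their values was 1.64 FPKM, for Gm11665 in Ang II replicate 2.

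Sln (ENSMUSG00000042045, chromosome 9 from 53850164 to 53854560, plus strand) encodes a peptide of 31 codons in a transcript of 1318 bases with 2 exons. Its FPKM was 67.1, 135 and 0.05 with Ang II alone and 0, 255 and 0.02 with Ang II + Tec. The third highest library was 1340 times the fourth, a ratio that rests on a value of 0.05 FPKM, close to the smallest value listed above 0. The log2 fold change was -1.74 (standard error 2.56, limma adjusted p = 0.689), within the spread between mice.

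Bmp10 (ENSMUSG00000030046, chromosome 6 from 87428994 to 87437677, plus strand, 2 exons) was the rarest member. Its FPKM was 1.11, 0.06 and 0 with Ang II alone and 0, 23.9 and 0 with Ang II + Tec. High Bmp10 was thus found in Ang II + Tec replicate 2, at 21.6 times Ang II replicate 1, while Ang II replicate 2, which held the most Myl4, was close to 0. Bmp10 did not reach 0.5 FPKM in 3 libraries, the minimum for the fit across all genes. Its means of log2(FPKM + 1) were 0.39 with Ang II alone and 1.55 with Ang II + Tec, a difference of 1.16 (two-sided exact permutation test, p = 1). Without Ang II + Tec replicate 2 the difference was -0.39.

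Of the 4 members, 3 were tested and 0 were called differentially expressed by limma (a log2 fold change of 1 or more in either direction, with adjusted p under 0.05), and 0 had an unadjusted p under 0.05. Among all 13089 genes tested, 0.16% were called, 0.084% were called higher with Tec, and 18.6% had an unadjusted p under 0.05. The 3 fold changes were negative while the mean FPKM of Myl7 and Sln was higher with Tec, at 347 against 250.4 for Myl7 and 85.1 against 67.3 for Sln. The mean of FPKM follows the high value of Ang II + Tec replicate 2, and the log scale gives more weight to the number of libraries near 0. The direction for these genes therefore differs between the scales, and neither difference exceeded the spread between mice.

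The members did not keep a fixed ratio in the 3 libraries that held them. Myl7 was 2.80 times Myl4 in Ang II replicate 1, 1.01 times in Ang II replicate 2 and 4.18 times in Ang II + Tec replicate 2. Myl4 was 2.23 and 2.45 times Sln in Ang II replicates 1 and 2, and 0.975 times in Ang II + Tec replicate 2. Myl7 was 6.25 times Sln in Ang II replicate 1, 2.47 times in Ang II replicate 2 and 4.07 times in Ang II + Tec replicate 2. Sln was 60.4 times Bmp10 in Ang II replicate 1, 2250 times in Ang II replicate 2 and 10.7 times in Ang II + Tec replicate 2. Relative to Sln, Myl7 was thus lowest in Ang II replicate 2, Myl4 was lowest in Ang II + Tec replicate 2, and Bmp10 was lowest in the former and highest in the latter. Over the 6 libraries, the centred log2 profiles of Myl4 and Sln were the closest pair of members (root mean square difference 0.46), and those of Myl7 and Bmp10 the farthest (3.47).

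A ratio between an atrial gene and its ventricular counterpart does not depend on the scaling between libraries. Myl2 was at 1663, 1227 and 1985 FPKM with Ang II alone and 2115, 1527 and 2069 with Ang II + Tec, so replicate 2 was the lowest of each group. Myl7 made up 20.1%, 21.3% and 0% of the sum of Myl7 and Myl2 with Ang II alone and 0%, 40.5% and 0.0763% with Ang II + Tec. The group means were 13.8% and 13.5%, a difference of -0.282 percentage points (two-sided exact permutation test, p = 1). The group means were close, while single libraries ranged from 0% to 40.5%.

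Myl4 made up 7.80%, 18.8% and 0.0293% of the sum of Myl4 and Myl3, the ventricular essential light chain, with Ang II alone and 0.0161%, 15.7% and 0.0655% with Ang II + Tec. The difference of the means was -3.60 percentage points (two-sided exact permutation test, p = 0.6). Sln made up 4.73%, 10.4% and 0.00305% of the sum of Sln and Pln with Ang II alone and 0%, 14.8% and 0.00123% with Ang II + Tec. Here the means differed by -0.0924 percentage points (two-sided exact permutation test, p = 0.8). In these shares, too, the same 3 libraries were high and the groups overlapped. The sign of each difference depended on single libraries: without Ang II replicate 2 the differences were 3.47 for Myl7, 1.35 for Myl4 and 2.58 for Sln.

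**Figure D2:**
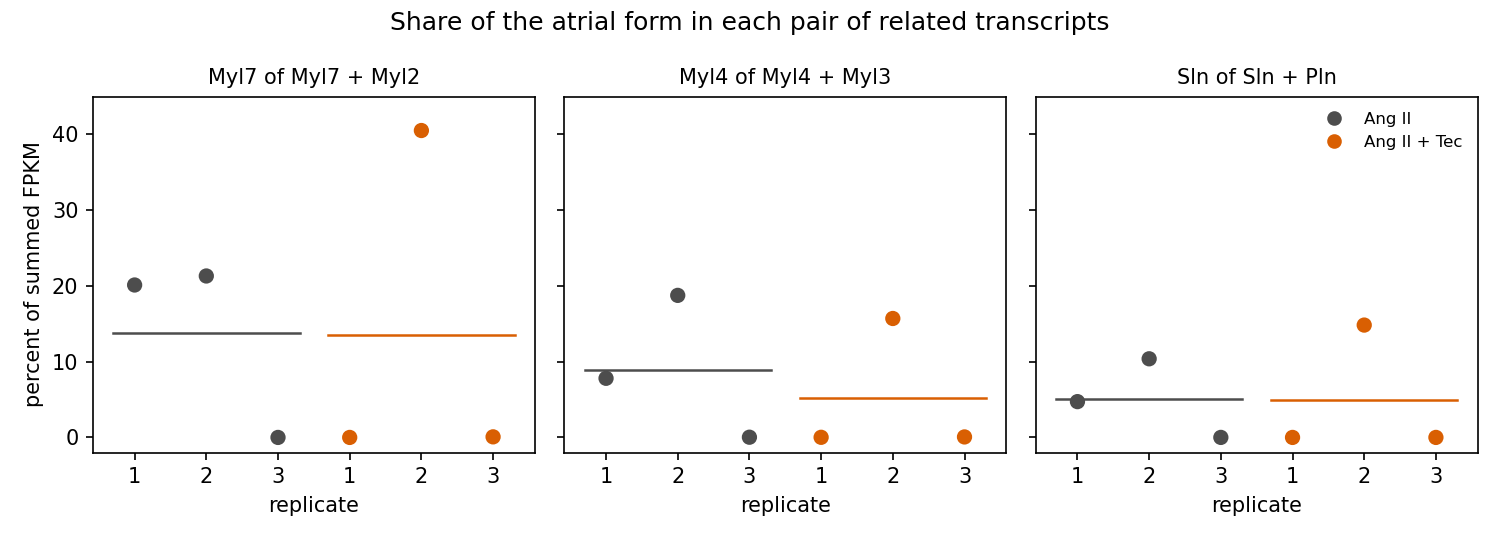
Share of the atrial gene in the summed FPKM of an atrial gene and its ventricular counterpart (percent), for each library; points are single mice and lines are group means. The highest share for Myl7 is 40.5% in Ang II + Tec replicate 2, and the group means for Myl7 are 13.8% and 13.5%.

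Other genes known to be enriched in the atria were examined as a list of 13, of which 12 were tested. By limma 0 of the 12 were called and 0 had an unadjusted p under 0.05, beside 0.16% and 18.6% of all genes tested. Their median log2 fold change was -0.13, beside -0.17 for all genes tested. Of these 12, 10 were lower with Tec, as were 80.0% of all genes tested, so this count shows no direction particular to the list. A median-of-ratios factor for each library moved the median of all genes by 0.17, and 5 of the 12 were then lower. With this factor the median of the list was 0.039, beside 0.0087 for all genes tested.

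Nppa, which encodes atrial natriuretic peptide and is also switched on in the stressed ventricle, was the most abundant gene of the list, with 94.3% of its summed FPKM. Its FPKM was 5568, 9456 and 256 with Ang II alone and 906, 3489 and 125 with Ang II + Tec. It was highest in the 3 libraries with abundant Myl7, but unlike the members it stayed above 100 FPKM in the others. The group means were 5093 ± 4619 (SD, n = 3) and 1507 ± 1760 (SD, n = 3), and the log2 fold change was -1.69 (standard error 1.59, limma adjusted p = 0.532). Leaving out each library in turn moved it from -3.30 without Ang II replicate 3 (limma adjusted p = 0.0711) to -0.42 without Ang II + Tec replicate 3 (0.915). With the mean log2 level of the 4 members as a covariate, the log2 fold change was -0.99 (standard error 0.93, limma adjusted p = 0.504). Relative to Myl7, Nppa was 13.3 times as abundant in Ang II replicate 1, 28.5 times in Ang II replicate 2 and 3.36 times in Ang II + Tec replicate 2.

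Mybphl, a myosin-binding protein of atrial muscle, followed the members most closely. Its FPKM was 47.6, 58.4 and 0 with Ang II alone and 0.29, 105 and 0.52 with Ang II + Tec. Dkk3, a secreted glycoprotein, was at 53.8, 69.9 and 1.69 FPKM and at 1.81, 64.8 and 6.47 FPKM. Both were high in the same 3 libraries. Pam, the enzyme that amidates secreted peptides and a major membrane protein of atrial granules, was at 79.3, 121 and 28.7 FPKM with Ang II alone and at 35.7, 119.9 and 27.1 with Ang II + Tec, high in the same 3 libraries with a shallower contrast.

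The atrial potassium channel subunit Kcnj3 was at 10.8, 8.00 and 8.26 FPKM with Ang II alone and 4.28, 22.7 and 6.01 with Ang II + Tec, with its highest value in Ang II + Tec replicate 2. Tbx5, a transcription factor of the atria and conduction system, was at 3.97, 4.14 and 2.13 FPKM and at 1.71, 7.25 and 1.86 FPKM. Kcna5 ranged from 7.04 to 10.2 FPKM with its highest value in Ang II replicate 3, a library with almost no Myl7. Nr2f1 was below the minimum for the test. Nr2f2 ranged from 0.78 to 1.42 FPKM and the gap junction gene Gja5 from 0.66 to 2.55 FPKM, both highest in Ang II replicate 2, and Kcnj5 from 8.79 to 19.8 FPKM, highest in Ang II + Tec replicate 2. Stard10 and Sbk2 reached their highest values, 55.5 and 12.5 FPKM, in Ang II + Tec replicate 2. The atrial genes thus ranged from those that nearly vanished with Myl7 to those that hardly varied.

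**Figure D3:**
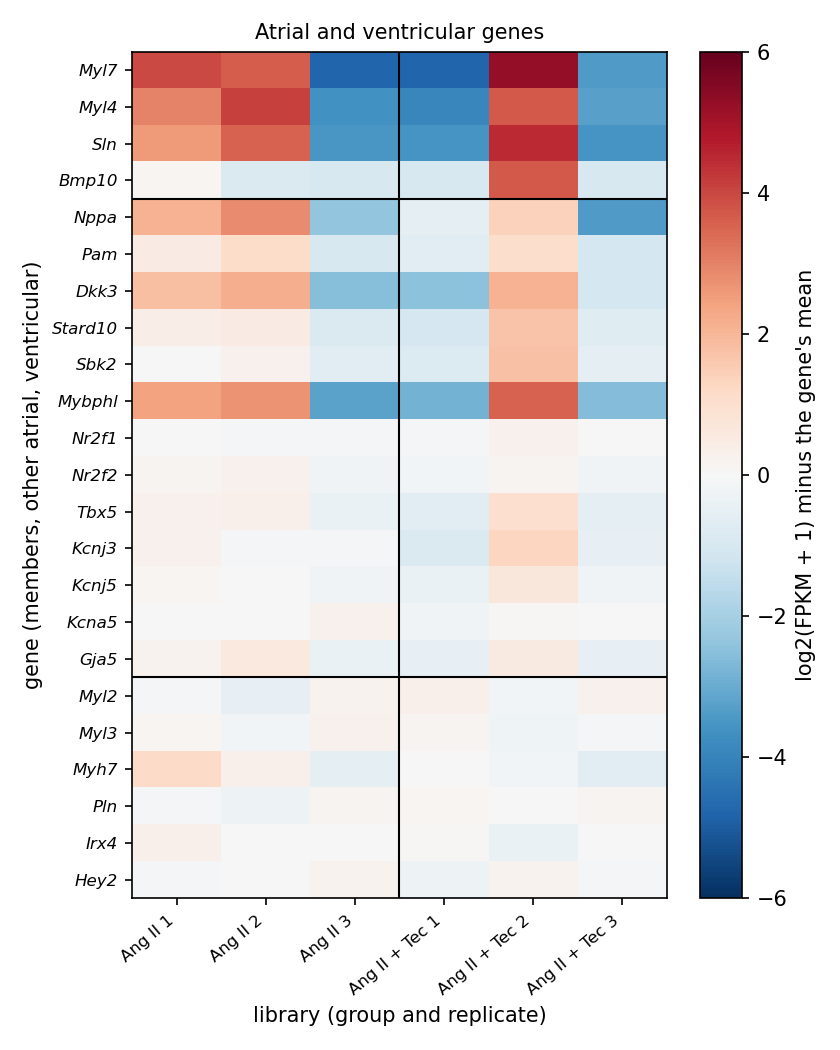
Difference of log2(FPKM + 1) from the mean of each gene over the 6 libraries (color), for the 4 members, 13 other atrial genes and 6 ventricular genes, separated by black lines. Mybphl and Dkk3 are high in the same 3 libraries as Myl7, while Kcna5, Myl2, Myl3 and Pln vary little.

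The ventricular list of Myl2, Myl3, Myh7, Pln, Irx4 and Hey2 summed to 4948, 3914 and 5592 FPKM with Ang II alone and 5553, 4397 and 5304 with Ang II + Tec. All 6 were tested, and by limma 0 were called and 0 had an unadjusted p under 0.05, beside 0.16% and 18.6% of all genes tested. In each group the lowest sum was in a library with abundant atrial transcripts. Muscle genes shared by both chambers, a list of 9 led by Actc1, ranged from 8217 to 10696 FPKM in sum. Each library was thus rich in cardiac muscle RNA, with or without atrial transcripts. Of the 9, 0 were called and 1 had an unadjusted p under 0.05 (limma), beside 0.16% and 18.6% of all genes tested.

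The likeness of other genes to the members was measured as the root mean square difference between a gene's centred log2(FPKM + 1) profile and the mean profile of the members over the 6 libraries, among 11040 genes with a mean of at least 1 FPKM. The median of these genes was 3.05. The nearest was Mybphl (0.37), followed by Cfd (1.23), Dkk3 (1.25), Gm13054 (1.31), Car3 (1.34), Scd1 (1.46), Hp (1.67), Nppa (1.69), Cyp2e1 (1.82) and Tmem163 (1.91). The gap between Mybphl and the others was wide. Gm13054 lies opposite Nppa on chromosome 4 and overlaps it by 989 bases, and without strand, reads from the shared bases cannot be told apart. Cfd, which encodes adipsin, a protease of fat cells, was at 10.3, 27.4 and 0.66 FPKM with Ang II alone and 0.17, 56.2 and 2.06 with Ang II + Tec. Car3 and Scd1 are also abundant in fat tissue, and both were highest in Ang II + Tec replicate 2, at 62.6 and 96.04 FPKM.

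Markers of other tissues were therefore compared over the same libraries. The most abundant gene of each list is the one with the highest sum over all 6. Among all genes tested, 0.16% were called and 18.6% had an unadjusted p under 0.05 (limma), for comparison with the counts of these lists. The adipocyte list of Ucp1, Cidea, Adipoq and Plin1 summed to 20.2, 24.5 and 13.2 FPKM with Ang II alone and 13.9, 73.9 and 15.8 with Ang II + Tec. Cidea was its most abundant gene, 2 of 4 were tested and 0 were called (limma, 0 at an unadjusted p under 0.05). Ucp1, the uncoupling protein of brown fat, was listed at 0 in 4 libraries, at 0.62 FPKM in Ang II replicate 2 and at 18.3 FPKM in Ang II + Tec replicate 2. Adipocyte transcripts were thus highest in the library with the most Myl7 and Bmp10, and their part in the results was not tested.

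The epicardium and mesothelium list summed to 2.05, 13.2 and 0.61 FPKM with Ang II alone and 1.53, 19.4 and 4.69 with Ang II + Tec. Upk3b had the highest sum over the 6 libraries, though Msln was higher in Ang II replicate 2, and 5 of 7 were tested and 0 were called (limma, 0 at an unadjusted p under 0.05). Msln, a surface protein of mesothelial cells, was at 0.37, 4.11 and 0.06 FPKM and at 0.23, 3.77 and 0.87 FPKM. The sum was thus highest in Ang II + Tec replicate 2 and Ang II replicate 2, and it was higher in Ang II + Tec replicate 3, which held almost no atrial transcripts, than in Ang II replicate 1, which held many.

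The smooth muscle list of Myh11, Cnn1, Acta2 and Tagln summed to 134, 316 and 92.1 FPKM with Ang II alone and 49.9, 231 and 77.9 with Ang II + Tec, led by Acta2. All 4 were tested and 0 were called (limma, 0 at an unadjusted p under 0.05). The fibroblast list summed to 498, 632 and 124 FPKM and to 107, 179 and 121 FPKM, led by Dcn. Of its 6 genes 0 were called by limma, and 3 had an unadjusted p under 0.05, beside 18.6% of all genes tested. All 6 were lower with Tec, as were 80.0% of all genes tested, and all 6 were also lower with the median-of-ratios factor. Their median log2 fold change was -1.57, beside -0.17 for all genes tested. Col1a1, a fibrillar collagen, was at 82.7, 100.4 and 7.09 FPKM with Ang II alone and 4.20, 8.06 and 3.83 with Ang II + Tec. Col1a1 was thus high in the 2 Ang II libraries with atrial transcripts and far lower in Ang II + Tec replicate 2, which held atrial transcripts too. Within the group with Tec, however, Col1a1 and the sum of the list were highest in that library. The part of smooth muscle, mesothelium and fibroblasts in the results was not tested.

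Sinus node genes, a list of 8 that includes the pacemaker channel Hcn4, summed to 7.47, 4.85 and 3.77 FPKM with Ang II alone and 3.14, 7.14 and 3.32 with Ang II + Tec. Hcn4 had the highest sum over the 6 libraries, close to that of Tbx3. Of the 4 tested, 0 were called and 0 had an unadjusted p under 0.05 (limma), beside 0.16% and 18.6% of all genes tested. Isl1 was listed at 0 in 4 libraries and did not exceed 0.09 FPKM. Shox2, a transcription factor of the sinus node, was at 1.32, 0.59 and 0.02 FPKM and at 0.08, 0.99 and 0.10 FPKM, high in the libraries with atrial transcripts. The lung epithelium list of 3 genes did not exceed 0.41 FPKM in sum, and none of the 3 reached 0.5 FPKM in any library.

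Among myosin light chains, 11 of 12 listed genes were found and tested. By limma 1 was called and 3 had an unadjusted p under 0.05, beside 0.16% and 18.6% of all genes tested. Myl6b was lower with Tec without overlap of the groups, but was not called (log2 fold change -0.41, limma adjusted p = 0.2). The called gene was Mylpf, the regulatory light chain of fast skeletal muscle. It was at 0.58, 0.56 and 0.22 FPKM with Ang II alone and 4.14, 3.44 and 4.55 with Ang II + Tec. The groups did not overlap, and its log2 fold change was 1.80 (standard error 0.15, limma adjusted p = 0.0142). With Ang II + Tec its level did not follow Myl7, since it was similar in replicates with and without atrial transcripts. With Ang II alone it was lowest, at 0.22 FPKM, in replicate 3, the library with almost no Myl7. With the level of the members as a covariate the log2 fold change was also 1.80 (standard error 0.15, limma adjusted p = 0.0338). The call was lost without Ang II replicate 1 (limma adjusted p = 0.108) and without Ang II + Tec replicate 1, 2 or 3 (0.104, 0.0569 and 0.108), with log2 fold changes of 1.86, 1.78, 1.89 and 1.73. It was also lost with no filter on low FPKM (limma adjusted p = 0.0788) and without the 3 libraries that held atrial transcripts (log2 fold change 2.13, limma adjusted p = 0.28), a choice made after seeing the data that leaves 1 Ang II library. Myl1, an essential light chain of fast muscle, was at 70.1, 169 and 14.1 FPKM and at 7.12, 39.04 and 7.47 FPKM, and was not called (limma adjusted p = 0.294). The list of fast skeletal muscle genes, led by Myl1, summed to 79.3, 221 and 15.6 FPKM with Ang II alone and 16.7, 49.9 and 19.6 with Ang II + Tec. Of its 9 genes, 8 were found and 5 tested, of which Mylpf was called, beside 0.16% of all genes tested.

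Among the calcium pumps and their small regulators, 6 of 7 genes were tested. By limma 1 was called and 2 had an unadjusted p under 0.05, beside 0.16% and 18.6% of all genes tested. Atp2a1, the pump of fast skeletal muscle, which sarcolipin also regulates, was at 0.10, 0.07 and 0.07 FPKM with Ang II alone and 6.30, 7.51 and 7.46 with Ang II + Tec. Its log2 fold change was 2.90 (standard error 0.11, limma adjusted p = 0.000251), which rests on the group with Tec for the minimum of 0.5 FPKM in 3 libraries, and with no filter on low FPKM the limma adjusted p was 0.00355. With the level of the members as a covariate it was 2.92 (standard error 0.088, limma adjusted p = 0.001). The call held without any 1 library (adjusted p from 7.42e-05 to 0.00789) and was lost without the 3 libraries that held atrial transcripts (log2 fold change 2.88, limma adjusted p = 0.28), where 1 Ang II library is left. The cardiac pump Atp2a2 was at 979, 755 and 1311 FPKM and at 1233, 1329.7 and 1237 FPKM, and was not called. Sln, in contrast to Atp2a1, divided the libraries within the groups and not between them.

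Receptors and targets of Bmp10 were examined as a list of 17, of which 13 were tested. By limma 0 were called and 0 had an unadjusted p under 0.05, beside 0.16% and 18.6% of all genes tested. The median log2 fold change of the list was -0.22, beside -0.17 for all genes tested. Acvrl1, which encodes the receptor Alk1, was at 8.37, 8.72 and 5.26 FPKM with Ang II alone and 5.64, 6.30 and 5.19 with Ang II + Tec. The target gene Id1 was at 41.7, 44.8 and 44.4 FPKM and at 35.4, 39.1 and 46.4 FPKM. In Ang II + Tec replicate 2, where Bmp10 was highest, neither was the highest of the 6 libraries, while the receptor Bmpr2 and the co-receptor Eng were, at 4.43 and 33.9 FPKM, close to their 4.10 and 32.6 FPKM in Ang II replicate 2. The signal transducer Smad9 was also highest in Ang II + Tec replicate 2, at 0.59 FPKM. Gdf2, which encodes the related ligand Bmp9, did not exceed 0.28 FPKM.

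Of all words of 50 bases in the transcripts of Myl7, Sln and Bmp10, 0 occur in a transcript of another gene, and of those of Myl4 0.043% do. Reads of this length could thus be assigned to Myl7 and Myl2, or to Myl4 and Myl3, without sharing. Since Myl7, Myl4 and Sln were high in the same 3 libraries, and Bmp10 clearly so in 1 of them, the 250 bases before the annotated starts of the members were examined in the RefSeq promoter table (GRCm38.p6), which held 3 of the 4 members (all but Sln). Several short motifs were searched on both strands. The TATA box, spelled TATAAA, occurred in 12.4% of 32851 promoter windows of this length. Of the motifs bound by GATA factors, the form AGATAA occurred in 9.99% and the form TGATAA in 7.94% of these windows. The T-box motif AGGTGT was found in 11.8%, the nuclear receptor motif AGGTCA in 14.02% and the Nkx2-5 motif TNAAGTG in 10.1%. A CArG box was found in 1.47% and a MEF2 motif in 2.92%. The TATA box, the T-box, nuclear receptor and Nkx2-5 motifs and the MEF2 motif were found in none of the 3 member windows. The windows of Myl7 and Bmp10 are shown because each gene has a single annotated start, with that of Nppa for comparison, and capitals mark the motifs.
Myl7 (chr11:5898783-5899032, minus strand): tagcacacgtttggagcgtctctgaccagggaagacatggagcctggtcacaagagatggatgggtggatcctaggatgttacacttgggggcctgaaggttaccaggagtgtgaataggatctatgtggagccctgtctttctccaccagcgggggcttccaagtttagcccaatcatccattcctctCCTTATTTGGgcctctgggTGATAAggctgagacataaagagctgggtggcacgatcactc
Bmp10 (chr6:87428744-87428993, plus strand): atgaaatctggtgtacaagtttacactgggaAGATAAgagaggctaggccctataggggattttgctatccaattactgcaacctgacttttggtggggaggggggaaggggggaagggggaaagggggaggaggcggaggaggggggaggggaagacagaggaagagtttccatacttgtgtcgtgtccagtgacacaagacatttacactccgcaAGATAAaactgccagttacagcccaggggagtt
Nppa (chr4:148000472-148000721, plus strand): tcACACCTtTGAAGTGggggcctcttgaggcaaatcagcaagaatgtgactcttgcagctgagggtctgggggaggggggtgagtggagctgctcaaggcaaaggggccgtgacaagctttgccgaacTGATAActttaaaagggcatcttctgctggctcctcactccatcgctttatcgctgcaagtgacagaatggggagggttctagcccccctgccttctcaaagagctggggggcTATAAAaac

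The window of Myl7 held a CArG box, 61 to 52 bases before the start, and the GATA motif TGATAA, 42 to 37 bases before it. That of Bmp10 held the other GATA form at 219 to 214 and again at 33 to 28 bases before the start. The Nppa window held a GATA motif, a TATA box, a T-box motif and an Nkx2-5 motif, the last 2 side by side at its far end. The window of Myl4 held none of the motifs, but Myl4 has 8 distinct annotated starts, and this window precedes the farthest of them. A match of these letters is a description of the sequence, and binding was not measured.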

How the data were processed

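RNA-seq libraries of 6 mouse hearts were examined, 3 in each group. The authors trimmed the reads and deposited FPKM for each gene and library. The submitters' processing notes name Bowtie 0.12.2, HISAT2 2.0 and StringTie 1.3.0 and the build mm8, without their roles. However, the coordinates of the members and of Myl2, Myl3, Pln, Nppa and Mybphl equal those of GENCODE M21 on GRCm38. FPKM keep no read totals, so the depth in reads is not known and low values carry no counting interval. Values above 0 are listed from 0.01 FPKM, and an exact 0 can be a failed estimate.

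Genes with at least 0.5 FPKM in at least 3 libraries were fitted as log2(FPKM + 1) with limma 3.58.1 in R 4.3.3 (lmFit, eBayes with trend), adjusted by the Benjamini-Hochberg method over 13089 genes. On this scale, changes of weakly expressed genes come out too small. A call required a log2 fold change of 1 or more in either direction, with adjusted p under 0.05. Shares and Bmp10 were compared by exact permutation of the libraries. The fit was tested on simulated data. The genes named are the members, genes of marker lists and the 10 genes nearest in profile. A further atrial gene that was listed is not reported here. The members and lists were chosen with earlier results of these data known. Alternatives changed the pseudocount, filter, scaling, block, variance trend and covariate, and left out libraries without changing the genes tested. Tables were handled with pandas 2.3.3 and drawn with matplotlib 3.10.9.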

Additional observations from a re-analysis of the deposited data

How the results depend on the processing

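The log2 fold changes of Myl7, Myl4 and Sln were negative under every alternative with 5 or 6 libraries and were not called under any alternative run, and 0 of the other atrial genes were called in any of them (limma; 0 of 12 at an unadjusted p under 0.05 with all libraries). Leaving out each library in turn moved Myl7 from -5.01 to -0.0028, close to no difference, Myl4 from -4.72 to -0.82, Sln from -4.40 to -0.40 and Nppa from -3.30 to -0.42. The number of genes called, 21, was 3 with no filter on low FPKM. Leaving out each library in turn gave 2 to 557 genes: 3, 7 and 557 without Ang II replicates 1, 2 and 3, and 4, 2 and 3 without Ang II + Tec replicates 1, 2 and 3. In alternatives chosen after seeing the data, with a lone library assumed to vary like the others, 0 genes were called without the 3 libraries in which Myl7, Myl4 and Sln were above 50 FPKM (limma; 1112 at an unadjusted p under 0.05), and 47 within those 3. These libraries were chosen by the members' own levels and each subset leaves 1 group with a single library, so the values of the members and Nppa in them are no test of direction: without them Myl7 was at 0.68, Myl4 at 0.049, Sln at -0.056 and Nppa at 0.40, and within them Myl7 was at 1.48, Myl4 at 0.16, Sln at 1.41 and Nppa at -1.06, none of them called. With the members as a covariate 14 were called, 12 of them among the 21. Leaving out each library moved the difference of Bmp10 from -0.39 to 1.93, that of the Myl7 share from -13.8 to 6.48, of the Myl4 share from -8.82 to 1.35, of the Sln share from -5.04 to 2.58 and of the member percent from -0.0922 to 0.0425 percentage points. Without mitochondrial genes in the sum, the member percent differed by 0.0229. The causes of these changes were not tested.

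The replicate numbers are shared between the groups. Of the 3 Ang II libraries, 2 correlated best with the Ang II + Tec library of the same number. However, same-numbered libraries did not all deviate together (correlations across genes of -0.0394, 0.429 and 0.379), so they were not taken as pairs. With the replicate block 22 genes were called, 18 of them among the 21, and the 3 tested members and Nppa were not called. The standard error of the Nppa log2 fold change was 0.289 with the block, beside 1.59 without it. Its limma adjusted p was 0.103 with the block, and 0.0711 to 0.915 with each library left out in turn.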
